A study of Mus musculus with 8 samples.

Results

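The genes described here encode the protein folding machinery of the endoplasmic reticulum (ER) and the transcription factors, enzymes and transporters of the integrated stress response, measured in brown adipose tissue of mice. The set was given as a list of 34 genes and was divided into an ER arm of 17 genes (chaperones, disulfide isomerases, the degradation machinery and the regulators Xbp1 and Atf6) and an integrated stress arm of 17 genes (Atf4 and genes known as its targets). A gene was read from its brightest probe set that carried 1 gene symbol, and 32 of the 34 genes had one, out of 22180 genes on the array. Pdia4 shared its probe set with the microRNA gene Mir704 and Gdf15 had no probe set named for it in the annotation used, so neither was analysed here. Of the 32 genes, 30 passed a limit for dim signal that 13229 genes of the whole array passed, 16 of them in the ER arm and 14 in the integrated stress arm.

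The tested mice were male Abhd15 KO animals (5 arrays) and their reference was male wild-type (WT) animals (3 arrays), all on a C57BL/6J background, fed normal chow, 14 weeks old, fasted overnight and given chow again for 1 h before the tissue was frozen. ABHD15, a hydrolase-fold protein made mainly in fat cells, is known to take part in the suppression of lipolysis by insulin. Each array (Affymetrix Mouse Gene 2.0 ST) held RNA of 1 mouse, and its values are log2 signals. How the gene was deleted, and in which cells, was not given in the sources used here. Abhd15 signal was 6.12 ± 0.27 log2 in arrays labelled Abhd15 KO (SD, n = 5) and 6.01 ± 0.19 log2 in WT arrays (SD, n = 3), so the transcript was not lower under the knockout label. Its probe set checks the label only if it lies in the deleted part, which is not known here, and every direction below rests on the labels.

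Ucp1, the uncoupling protein that defines brown adipocytes, read between 12.52 and 12.89 log2 in arrays labelled Abhd15 KO and between 12.51 and 12.77 log2 in WT arrays. Array medians over all probe sets lay between 3.00 and 3.04 log2. Skeletal muscle RNA varied between mice of both groups: the mean of 16 muscle genes, relative to its mean over the arrays, ranged from −1.88 to 0.87 log2 in arrays labelled Abhd15 KO and from −1.17 to 1.602 log2 in WT arrays. All 16 muscle genes averaged lower in the arrays labelled Abhd15 KO (median −0.53 log2), as did 10 of 12 macrophage genes (median −0.19 log2). Of the endothelial genes 8 of 8 averaged higher (median 0.16 log2), and 0 genes of these lists passed the limma test. At an unadjusted limma p under 0.05 there were 2 macrophage genes, both lower, and 0 muscle or endothelial genes (4.01% of all genes). The groups did not overlap in 1 macrophage gene, also lower, and in 0 of the other lists (2.77% of all genes). In a tissue sample, fewer cells of a type and less RNA per cell cannot be told apart.

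Cells that load more protein into the ER than it can fold raise the output of chaperones through 3 sensors, the kinase-nuclease IRE1, which splices Xbp1 mRNA, the membrane-bound factor ATF6, and the kinase PERK. PERK and its sister kinases phosphorylate eIF2 alpha, which slows general translation while ATF4 is translated more, and ATF4 turns on genes of amino acid uptake and synthesis. Brown adipocytes are packed with mitochondria, and mitochondrial stress in them is known to raise ATF4 targets such as the secreted factors Fgf21 and Gdf15. Probe sets for whole transcripts do not show Xbp1 splicing or the phosphorylation of eIF2 alpha.

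Promoter stretches are shown first because they hold the elements known to bind ATF6, XBP1 and ATF4. The genes were listed as known ER stress genes and ATF4 targets, so the presence of these elements is not independent of that choice. RefSeq windows of 300 bases (GRCm38.p6), from 250 bases before a transcript start to 50 after it, were at hand for 30 of the 34 genes. The ER stress element, searched as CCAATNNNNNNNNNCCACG on both strands, was in the windows of 6 of 14 ER arm genes and of 0 of 16 integrated stress arm genes, and in 0.119% of all 32851 windows. The second form, ATTGGNCCACG, was in the Herpud1 window and in 0.0365% of all windows. The matches found in these genes did not overlap each other. In the lines that follow, capitals mark the fixed bases of the element, read 5′ to 3′ along the gene's strand.

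Hspa5, chr2:34772005-34772063, plus strand: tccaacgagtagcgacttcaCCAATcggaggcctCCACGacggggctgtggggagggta

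Hsp90b1, chr10:86705618-86705676, minus strand: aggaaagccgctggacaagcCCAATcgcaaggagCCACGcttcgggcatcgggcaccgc

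Hsp90b1, chr10:86705513-86705571, minus strand, element on the opposite strand: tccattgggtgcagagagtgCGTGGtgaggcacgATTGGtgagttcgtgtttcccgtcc

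Pdia6, chr12:17266471-17266529, plus strand: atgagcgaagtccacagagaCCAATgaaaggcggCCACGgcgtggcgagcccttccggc

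Calr, chr8:84847055-84847113, minus strand, element on the opposite strand: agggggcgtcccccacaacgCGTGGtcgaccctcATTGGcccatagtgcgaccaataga

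Canx, chr11:50325780-50325838, minus strand: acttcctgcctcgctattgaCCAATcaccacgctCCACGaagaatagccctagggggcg

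Creld2, chr15:88819500-88819558, plus strand, element on the opposite strand: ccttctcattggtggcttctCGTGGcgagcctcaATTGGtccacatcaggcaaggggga

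Herpud1, chr8:94386357-94386407, plus strand, second form: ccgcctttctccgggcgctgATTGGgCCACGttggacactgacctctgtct

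The element bound by ATF4 with its C/EBP partners, searched as TGATGNAA on both strands, was in the windows of 5 of 16 integrated stress arm genes (Atf3, Chac1, Asns, Slc7a11 and Trib3) and of 1 of 14 ER arm genes (Herpud1), against 3.97% of all windows. In Slc7a11 it occurred 2 times, and in Trib3 it lay after the start. The unfolded protein response element TGACGTGG was in 0 windows of either arm and in 0.676% of all windows. A match describes the letters only and shows neither binding nor a cause. The matches in Chac1, Atf3 and Asns are given because the values of these genes are set out further on.

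Chac1, chr2:119351029-119351076, plus strand, element on the opposite strand: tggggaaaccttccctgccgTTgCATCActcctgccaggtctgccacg

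Atf3, chr1:191183416-191183463, minus strand, element on the opposite strand: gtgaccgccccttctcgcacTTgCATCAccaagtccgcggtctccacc

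Asns, chr6:7693210-7693252, minus strand: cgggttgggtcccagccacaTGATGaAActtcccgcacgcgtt

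No gene of either arm passed the test between the arrays labelled Abhd15 KO and the WT arrays. By group means, arrays labelled Abhd15 KO were above WT in 7 of 16 ER arm genes and below in 9 (median difference −0.01 log2). In the integrated stress arm they were above in 5 of 14 genes and below in 9 (median −0.05 log2, and 0.05 log2 without WT replicate 1). Over all 13229 genes they were above in 6841 and below in 6388, and the median was 0.01 log2. In the limma fit 0 of 30 genes passed an adjusted p of 0.05, as did 0% of all genes tested, and the adjusted p was 0.9997 for each of the 30. At an unadjusted p under 0.05 there were 0 of the 30, against 4.01% of all genes. The values of the 2 groups overlapped in all 30, while they did not overlap in 2.77% of all genes.

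Differences ran from −0.43 log2 for Phgdh to 0.27 log2 for Hspa5. For 18 of the 30 genes the 95% confidence interval lay within 0.5 log2 of 0 on both sides, and for 27 within 1 log2. The median half-width of the interval was 0.38 log2 for the set and 0.36 log2 for all genes tested. The widest intervals belonged to Ddit4 and Chac1, whose values differed most between mice of the same label.

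**Figure D1:**
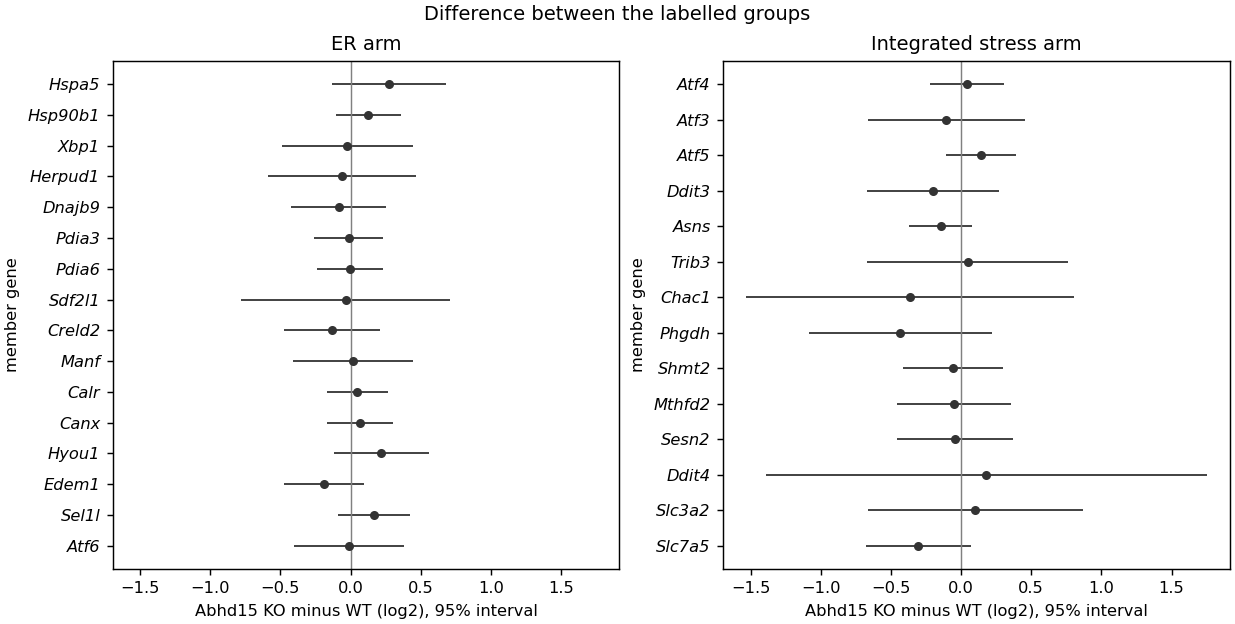
Difference in log2 signal, arrays labelled Abhd15 KO minus WT, for the 30 tested genes, with the ER arm on the left and the integrated stress arm on the right. Points are the fitted differences and bars their 95% confidence intervals, and every interval includes 0, the widest being that of Ddit4 (−1.39 to 1.75).

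Hspa5 encodes BiP, the HSP70-class chaperone of the ER lumen whose level is the usual gauge of ER load. It read 7.76, 7.80, 7.62, 8.22 and 8.36 log2 in replicates 1 to 5 of the arrays labelled Abhd15 KO, against 7.78, 7.64 and 7.62 log2 in WT replicates 1 to 3. Replicates 4 and 5 of the arrays labelled Abhd15 KO stood above the other 6 arrays, and the remaining 3 spanned nearly the same range as the WT arrays. The difference was 0.27 log2 or 1.21-fold (95% confidence interval −0.13 to 0.68, exact two-sided permutation p = 0.232 with n = 5 and 3). Without those 2 arrays it was 0.05 log2, with a limma adjusted p of 1.

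Hsp90b1 encodes GRP94, the HSP90-class chaperone that works after BiP. It read 10.04, 9.998, 10.07, 10.18 and 10.24 log2 in the arrays labelled Abhd15 KO, against 10.04, 9.97 and 9.92 log2 in WT arrays, and the same replicates 4 and 5 were highest. The difference was 0.13 log2 (−0.11 to 0.36, exact permutation p = 0.125) and 0.06 log2 without them. Hspa5 and Hsp90b1 were correlated over the 8 arrays (Pearson r = 0.90, exact permutation p = 0.00546, and Spearman rho = 0.69, exact permutation p = 0.0694). Adjusted over the 57 pairs that joined Hspa5 or Asns to another gene of the set, the p for r was 0.311 in the same exact permutation test. Without the 2 arrays farthest from the median of Hspa5 the r was 0.34, so the relation rests on replicates 4 and 5 of the arrays labelled Abhd15 KO.

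Hyou1, the exchange factor that recharges BiP, read 7.25 to 7.73 log2 in the arrays labelled Abhd15 KO and 7.03 to 7.52 log2 in WT arrays. It was highest in replicate 4 of the arrays labelled Abhd15 KO and lowest in WT replicate 2, and the difference was 0.22 log2 (−0.12 to 0.56, exact permutation p = 0.214). The co-chaperone Dnajb9 differed by −0.09 log2 (−0.43 to 0.26). Among the smaller secretory pathway factors, Creld2 differed by −0.13 log2 (−0.48 to 0.21) and Manf, a BiP-binding secreted factor, by 0.02 log2 (−0.41 to 0.44). Manf and Sdf2l1 read under 5 log2 in every array, closer to the dim limit of 2.88 log2 than the other chaperones.

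The lectin chaperones varied little between mice. Calr, calreticulin, read 9.93 to 10.02 log2 in the arrays labelled Abhd15 KO and 9.84 to 9.998 log2 in WT arrays, and its residual SD of 0.06 log2 was at the 1.07 percentile of all genes tested. Canx, calnexin, read 10.22 to 10.44 log2 in the arrays labelled Abhd15 KO, against 10.15 to 10.37 log2 in WT arrays, a difference of 0.07 log2 (−0.17 to 0.30). For Calr the difference was 0.05 log2 (−0.17 to 0.26).

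The disulfide isomerases Pdia3 and Pdia6 differed by −0.01 log2 each (−0.26 to 0.23 and −0.24 to 0.23). Their values had r = 0.87 and rho = 0.83 over the 8 arrays (adjusted exact permutation p = 0.396 for r over the 435 pairs), and r = 0.58 without the 2 arrays farthest from the median of Pdia3. Pdia6 read 8.22, 8.29, 8.50, 8.28 and 8.41 log2 in the arrays labelled Abhd15 KO and 8.30, 8.35 and 8.37 log2 in WT arrays. Sdf2l1, a partner of ER co-chaperones, read 3.42, 3.25, 4.76, 3.69 and 4.40 log2 in the arrays labelled Abhd15 KO and 3.79, 3.85 and 4.17 log2 in WT arrays. Both were highest in replicate 3 of the arrays labelled Abhd15 KO, then in its replicate 5, then in WT replicate 3.

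Among all 435 pairs of the 30 genes, Pdia6 and Sdf2l1 had the highest correlation (r = 0.93, exact permutation p = 0.000967, and rho = 0.93, exact permutation p = 0.00223). It was r = 0.88 without the 2 arrays farthest from the median of Pdia6. Adjusted over the 435 pairs the p for r was 0.219 in that exact permutation test, and no pair had a lower one. Pdia3 with Sdf2l1 gave r = 0.88 (rho = 0.86, adjusted exact permutation p = 0.396 for r).

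Xbp1, the factor spliced by IRE1, read 7.84, 7.99, 8.42, 8.12 and 8.40 log2 in the arrays labelled Abhd15 KO, against 8.66 log2 in WT replicate 1 and 7.88 log2 in WT replicate 2, with WT replicate 3 between them. WT replicate 1 was the highest of all, and the difference was −0.02 log2 (−0.49 to 0.44). Its direction rested on single arrays, at 0.21 log2 without WT replicate 1 and −0.17 log2 without WT replicate 2. Atf6 read 8.09, 8.39, 8.28, 8.65 and 8.73 log2 in the arrays labelled Abhd15 KO, against 8.65, 8.18 and 8.49 log2 in WT arrays, a difference of −0.01 log2 (−0.41 to 0.38). Neither factor separated the groups.

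ER-associated degradation, which pulls misfolded proteins back to the proteasome, was represented by Herpud1, Edem1 and Sel1l. Herpud1 read 9.69, 9.67, 10.36, 9.47 and 9.46 log2 in the arrays labelled Abhd15 KO, against 10.07, 9.93 and 9.37 log2 in WT arrays. Replicate 3 of the arrays labelled Abhd15 KO stood alone at the top of its group. Edem1, a lectin that marks misfolded glycoproteins, differed by −0.19 log2 (−0.47 to 0.10, exact permutation p = 0.143). Sel1l, the scaffold of the degradation complex, differed by 0.17 log2 (−0.09 to 0.43, exact permutation p = 0.107).

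**Figure D2:**
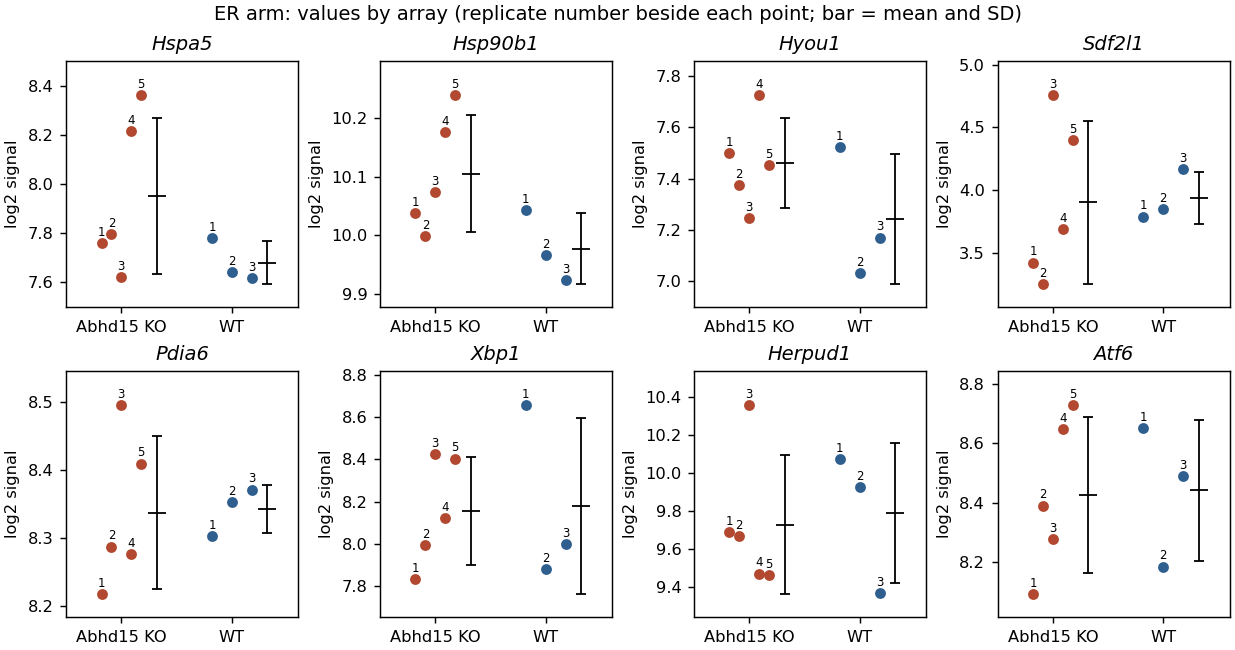
Log2 signal of 8 ER arm genes in each array, arrays labelled Abhd15 KO on the left and WT on the right of each panel, with the replicate number above each point and the group mean and SD as a bar. Hspa5 and Hsp90b1 are highest in replicates 4 and 5 of the arrays labelled Abhd15 KO, Sdf2l1, Pdia6 and Herpud1 in its replicate 3, and Xbp1 in WT replicate 1.

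In the integrated stress arm Atf4 itself varied little. It read 7.50, 7.72, 7.42, 7.53 and 7.77 log2 in the arrays labelled Abhd15 KO and 7.60, 7.51 and 7.52 log2 in WT arrays, a difference of 0.04 log2 (−0.22 to 0.31). Atf5, a related factor of the mitochondrial stress response, differed by 0.15 log2 (−0.10 to 0.39, exact permutation p = 0.143). Ddit3, which encodes the stress factor CHOP, read 5.95, 6.31, 6.22, 6.20 and 6.03 log2 in the arrays labelled Abhd15 KO and 5.79, 6.79 and 6.44 log2 in WT arrays. WT arrays held both its lowest and its highest value, and the difference was −0.20 log2 (−0.67 to 0.27). It was −0.48 log2 without WT replicate 1 and 0.03 log2 without WT replicate 2.

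Asns, asparagine synthetase and the textbook ATF4 target, varied least of its arm. It read 7.77, 7.71, 7.62, 7.71 and 7.61 log2 in the arrays labelled Abhd15 KO, against 7.73, 7.89 and 7.85 log2 in WT arrays. WT replicate 1 lay within the values of the arrays labelled Abhd15 KO, and replicate 1 of those arrays lay within the WT values. The difference was −0.14 log2 (−0.37 to 0.08), with the smallest exact two-sided permutation p of the set, 0.0714, where the design allows 0.0179. By limma it did not rank first: its unadjusted limma p was 0.183, and the smallest of the set was that of Slc7a5, 0.0974.

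Chac1, which breaks down glutathione, and Trib3, a pseudokinase that binds ATF4 and AKT, varied more between mice, with residual SDs at the 99.2 percentile (Chac1) and the 94.7 percentile (Trib3) of all genes tested. Chac1 read 3.76, 4.30, 4.55, 3.93 and 5.08 log2 in the arrays labelled Abhd15 KO, against 6.18, 3.71 and 4.17 log2 in WT arrays. Trib3 read 5.28, 5.11, 5.61, 5.54 and 4.97 log2 in the arrays labelled Abhd15 KO, against 6.08, 4.46 and 5.21 log2 in WT arrays. For both genes the WT group held the highest value, in replicate 1, and the lowest, in replicate 2. Ddit3 ran the other way in these arrays, lowest in WT replicate 1 and highest in WT replicate 2. The difference was −0.36 log2 for Chac1 (−1.53 to 0.80) and 0.05 log2 for Trib3 (−0.67 to 0.76). Without WT replicate 1 they were 0.38 and 0.46 log2, and without WT replicate 2 they were −0.85 and −0.35 log2.

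WT replicate 1 was also highest in all 16 muscle genes, with a list mean of 1.602 log2. When the muscle list mean was added to the fit the difference was −0.21 log2 for Chac1 and 0.13 log2 for Trib3.

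Ddit4 encodes REDD1, an inhibitor of mTORC1 that glucocorticoids, low oxygen and low energy also induce. It read 6.75, 5.55, 4.35, 4.35 and 7.19 log2 in the arrays labelled Abhd15 KO and 6.13, 5.71 and 4.54 log2 in WT arrays. It had the widest spread of the set, 2.85 log2 over the arrays, and its residual SD was at the 99.7 percentile of all genes tested. The difference was 0.18 log2 (−1.39 to 1.75), and leaving out 1 array moved it between −0.28 log2 (without WT replicate 3) and 0.51 log2 (without WT replicate 1). It was also negative without replicate 1 (−0.10 log2) or replicate 5 (−0.21 log2) of the arrays labelled Abhd15 KO, and 0.50 log2 without its replicate 3 or 4. Atf3, an immediate stress factor, read 5.06, 4.57, 4.41, 4.57 and 5.38 log2 in the arrays labelled Abhd15 KO and 5.17, 5.06 and 4.48 log2 in WT arrays. The same 4 arrays were highest in both genes (r = 0.91, rho = 0.92, and r = 0.82 without the 2 arrays farthest from the median of Atf3, with an exact permutation p for r of 0.00149 and an adjusted one of 0.219).

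Sesn2, a leucine sensor that restrains mTORC1, differed by −0.04 log2 (−0.45 to 0.37). Of the serine and one-carbon enzymes, Phgdh, the entry enzyme of serine synthesis, read 3.36, 3.89, 3.63, 4.02 and 2.84 log2 in the arrays labelled Abhd15 KO and 3.50, 4.44 and 4.00 log2 in WT arrays. Its difference of −0.43 log2 (−1.08 to 0.22, exact permutation p = 0.268) was the largest in size of the 30 genes with all arrays in, and 1 of its 8 values lay below the dim limit. It was −0.67 log2 without WT replicate 1, −0.20 log2 without WT replicate 2 and −0.26 log2 without replicate 5 of the arrays labelled Abhd15 KO, so its size and rank rested on single arrays. The mitochondrial enzymes Shmt2 and Mthfd2 differed by −0.06 log2 (−0.41 to 0.30) and −0.05 log2 (−0.45 to 0.35). Psat1, the next enzyme after Phgdh, was above the dim limit in 2 of 8 arrays and was not tested.

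Of the amino acid carriers, Slc3a2, the heavy chain CD98, read 8.54, 8.64, 8.10, 9.32 and 9.23 log2 in the arrays labelled Abhd15 KO and 9.33, 8.03 and 8.63 log2 in WT arrays. Its high arrays were WT replicate 1 and replicates 4 and 5 of the arrays labelled Abhd15 KO, which were also the highest 3 in Atf6 (r = 0.86, rho = 0.83, adjusted exact permutation p = 0.495 for r). The difference was 0.10 log2 (−0.66 to 0.87), and its sign rested on single arrays, with 0.43 log2 without WT replicate 1 and −0.21 log2 without WT replicate 2. It was also negative without replicate 4 (−0.04 log2) or replicate 5 (−0.01 log2) of the arrays labelled Abhd15 KO. Slc7a5, the light chain LAT1, read 3.01 to 3.65 log2 in the arrays labelled Abhd15 KO and 3.47 to 3.81 log2 in WT arrays, a difference of −0.30 log2 (−0.68 to 0.07). Slc7a11, the cystine carrier, was above the dim limit in 0 of 8 arrays.

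**Figure D3:**
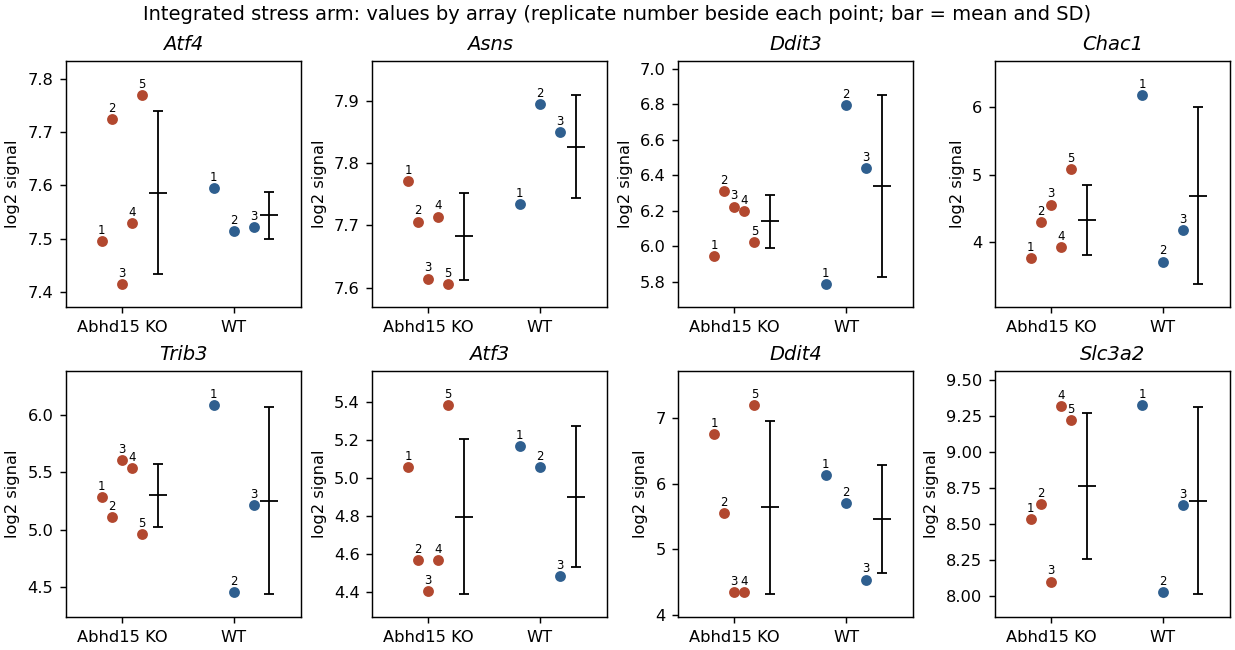
Log2 signal of 8 integrated stress arm genes in each array, arrays labelled Abhd15 KO on the left and WT on the right of each panel, with the replicate number above each point and the group mean and SD as a bar. Atf4 and Asns span under 0.4 log2 over the arrays, Chac1 and Trib3 have both their highest and lowest values in WT, and Ddit4 spans 2.85 log2.

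Genes of an arm were only loosely correlated across mice. The median correlation was 0.12 over the 120 pairs within the ER arm, 0.05 over the 91 pairs within the integrated stress arm and −0.06 over the 224 pairs between them, all over 8 arrays that also differ in muscle RNA. With Hspa5, 10 of 15 other ER arm genes had a positive r (median 0.25), where the median over all other genes tested was −0.03. With Asns, 5 of 13 other genes of its arm had a positive r (median −0.03, and −0.03 over all other genes). Of the ER arm genes, 2 of 15 had a positive r with Asns (median −0.39). The lowest adjusted exact permutation p for r among these, over the 57 pairs, was 0.524 (Hsp90b1, r = −0.76). The mean of the ER arm, relative to its mean over arrays, was highest in replicate 5 of the arrays labelled Abhd15 KO (0.16 log2), and that of the integrated stress arm in WT replicate 1 (0.29 log2).

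**Figure D4:**
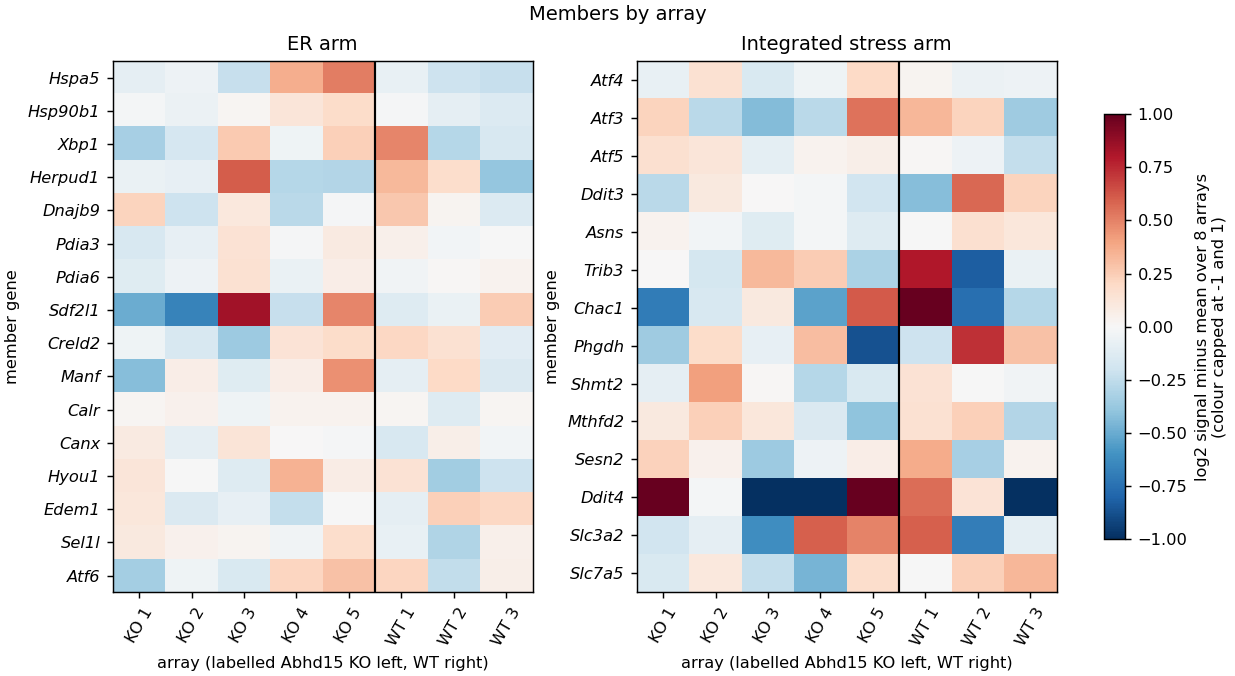
Log2 signal of the 30 tested genes minus each gene's mean over the 8 arrays (colour, capped at −1 and 1), arrays labelled Abhd15 KO left of the line and WT right of it. No column pattern separates the labels, and single arrays stand out in single genes, such as Ddit4 in several arrays and Chac1 in WT replicate 1.

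Among the pairs of highest correlation, Xbp1 and Chac1, which belong to different arms, had r = 0.91 (exact permutation p = 0.00151, adjusted 0.219 over the 435 pairs) and rho = 0.86, and r = 0.89 without the 2 arrays farthest from the median of Xbp1. These pairs were singled out after their values were seen.

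**Figure D5:**
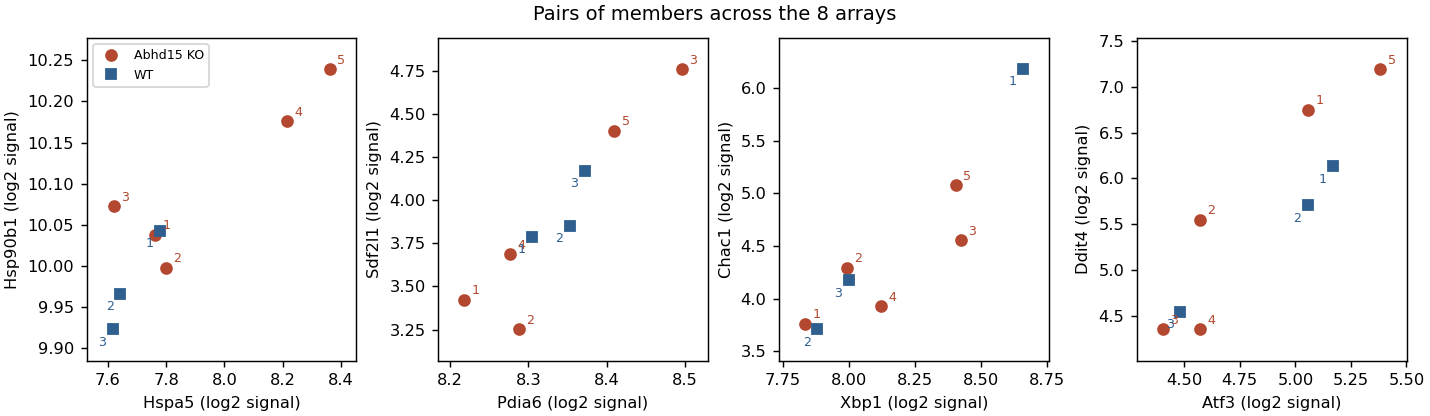
Log2 signal of 4 pairs of genes over the 8 arrays, with arrays labelled Abhd15 KO as circles and WT arrays as squares, numbered by replicate. The Hspa5 and Hsp90b1 panel is stretched by replicates 4 and 5 of the arrays labelled Abhd15 KO. In the panels of Pdia6 with Sdf2l1, Xbp1 with Chac1, and Atf3 with Ddit4 the values tend to rise together within both labels.

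Where 2 arrays stood apart in a gene of fat metabolism, few genes of the set had their extremes in the same arrays. Angptl8, a secreted inhibitor of lipoprotein lipase that feeding induces, was lowest in replicate 1 of the arrays labelled Abhd15 KO (7.90 log2) and in WT replicate 2 (7.95 log2), against 10.42 to 10.81 log2 elsewhere. Xbp1, Atf6 and Chac1 were lowest in the same 2 arrays, which is 3 of 30 genes or 10%, against 7.64% of all genes tested, and 0 of 30 were highest there, against 9.59% of all genes. The first share is near that of all genes.

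Dio2, the deiodinase that activates thyroid hormone in brown fat, was lowest in replicate 3 of the arrays labelled Abhd15 KO (4.47 log2) and in WT replicate 1 (5.57 log2), against 6.63 to 8.32 log2 in the other arrays. Xbp1, Herpud1 and Trib3 were highest in those 2 arrays, which is 10% of the set, against 3.46% of all genes tested, and 0 of 30 were lowest there, against 2.72% of all genes. In replicate 3 of the arrays labelled Abhd15 KO, 5 of 7 brown adipocyte markers were at their lowest, with a list mean of −0.59 log2, against −0.25 to 0.37 log2 in the other arrays. Dio2, by which this array was picked, is itself among these markers. The count and the list mean are therefore not independent of that choice. B and plasma cell markers, which would mark cells with much ER, were tested for 2 of 7 genes, and the other 5 were dim. The part of these features in the values of the set was not tested.

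In the wider pathway no gene passed the test either. Of 154 tested genes in 10 further lists, group means in the arrays labelled Abhd15 KO were above WT for 93 and below for 61 (median difference 0.03 log2). Over all 13229 genes they were above for 6841 and below for 6388. All genes were read in the same 8 mice, so the directions within a list below are not independent. Of the 154 genes, 0 passed the limma test at an adjusted p of 0.05. At an unadjusted p under 0.05 there were 2 (1.30%, against 4.01% of all genes), and the groups did not overlap in 5 (3.25%, against 2.77% of all genes). Neither share stood far above that of all genes.

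Among ER genes, Edem2, a degradation lectin, read 6.13 ± 0.19 log2 in the arrays labelled Abhd15 KO and 6.46 ± 0.17 log2 in WT arrays (SD, n = 5 and 3), a difference of −0.33 log2 (−0.64 to −0.01). Srp9, a subunit of the signal recognition particle, read 6.25 ± 0.08 log2 in the arrays labelled Abhd15 KO and 5.98 ± 0.11 log2 in WT arrays (0.27 log2, 0.04 to 0.51). These were the 2 genes at an unadjusted p under 0.05, and the limma adjusted p was 0.9997 for each. P4hb, the founding disulfide isomerase, differed by −0.21 log2 (−0.46 to 0.04) and Txndc5, another isomerase, by −0.24 log2 (−0.56 to 0.08). Of the translocation genes 15 of 22 read higher, with a median of 0.04 log2, including the signal peptidase subunit Sec11a at 0.25 log2 (−0.02 to 0.51). Of the degradation genes 12 of 17 read higher (median 0.03 log2), among them Derl2, a channel component, at 0.13 log2 (−0.16 to 0.42), and of the other folding genes 11 of 24 (median −0.02 log2).

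Among the sensors and eIF2 alpha regulators 9 of 18 read higher (median 0.00 log2), with Eif2ak4, the amino acid-sensing kinase GCN2, at −0.34 log2 (−0.72 to 0.05) and Mbtps2, a protease that releases ATF6, at 0.12 log2 (−0.16 to 0.40). The cytosolic tRNA synthetases, many of them ATF4 targets, had 8 of 18 higher (median −0.01 log2). Sars, the seryl enzyme, differed by −0.20 log2 (−0.43 to 0.03) and Qars, the glutaminyl enzyme, by −0.17 log2 (−0.44 to 0.09). Among other amino acid transporters 7 of 9 read higher (median 0.05 log2), including Slc7a6 at 0.35 log2 (−0.01 to 0.71) and Slc36a1 at 0.20 log2 (−0.15 to 0.56).

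Other integrated stress targets had 11 of 15 higher (median 0.10 log2), with the factor Cebpb at 0.37 log2 (−0.05 to 0.79) and the autophagy gene Map1lc3b at 0.19 log2 (−0.12 to 0.49). The other serine, proline and one-carbon genes had 5 of 7 higher (median 0.05 log2), with the transaminase Gpt2 at −0.33 log2 (−0.79 to 0.12) and Mthfd1 at −0.13 log2 (−0.50 to 0.24). Mitochondrial protein quality genes had 6 of 14 higher (median −0.02 log2), with the chaperone Hspd1 at 0.13 log2 (−0.14 to 0.39) and the protease subunit Spg7 at −0.20 log2 (−0.48 to 0.08).

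A list of heat shock genes, mostly cytosolic but with the ER-resident Serpinh1 among them, had 9 of 10 higher (median 0.07 log2). Hsp90aa1, the inducible cytosolic HSP90, read 7.13, 7.07, 7.11, 7.12 and 7.11 log2 in the arrays labelled Abhd15 KO, against 6.85, 6.99 and 7.01 log2 in WT arrays, without overlap (0.16 log2, −0.06 to 0.37). Serpinh1, the collagen chaperone HSP47 of the ER lumen, had the highest difference of the list, 0.27 log2 (−0.18 to 0.73). P4hb, Srp9, Sars, Hsp90aa1 and Ssr3, a translocon subunit named after its values were seen (0.20 log2, −0.01 to 0.41), made up the 5 genes without overlap, and the limma adjusted p of each was 0.9997.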

How the data were processed

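RNA of brown adipose tissue from 8 mice was hybridised to 1-colour arrays, 200 ng of total RNA each. The deposited values are log2 signals per probe set, made by the authors with RMA and the oligo package, per the submitters' processing notes, with no version given. Expression Console is named as well, in the series' design text, so which program made these values is unsure, and no genome build is stated there. RMA gives all arrays one distribution, which hides any shift common to the whole array. Arrays give no read depth, and their number limits the precision.

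Gene symbols came from GEO's annotation of the platform: 23521 had 1 gene symbol, 1814 had several and 16010 were unnamed. The brightest probe set stood for a gene. The dim limit of 2.88 log2 was the 95th percentile of 1405 olfactory and vomeronasal receptor probe sets, and a gene entered the test when 3 or more arrays exceeded it. The comparison used limma 3.58.1 (R 4.3.3) with genotype label as the single term in lmFit and eBayes, with Benjamini-Hochberg adjustment over 13229 genes and a threshold of 0.05. For single genes an exact permutation test (two-sided) ran through all 56 splits of the arrays, and correlations by exact permutation of the 8 pairings. The fit was tested on simulated data.

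The members and lists were chosen with earlier results of these data known. Genes given with values are Abhd15, all members and, per pathway list, the 2 of lowest p and any with an unadjusted p under 0.05. Ucp1 was given as the gene that defines brown adipocytes. Angptl8 and Dio2 were taken up outside these rules, for the 2 arrays that stood apart in each. Others were given only where marked as chosen after their values were seen. Alternatives were other filters, normalization, variance models, array weights, probe set means, the replicate number as a block, a muscle covariate, a looser threshold and leaving out arrays. Leaving out the 2 arrays highest in Hspa5 was chosen after seeing the data.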

Additional observations from a re-analysis of the deposited data

Results flagged for a closer look

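Of 30 genes and 2 arm means tested for a sample far from the others among the 5 arrays labelled Abhd15 KO, 2 genes had one, and chance gives about 1 in 20. Herpud1 read 10.36 log2 in replicate 3 of the arrays labelled Abhd15 KO, against 9.46 to 9.69 log2 in the other 4 arrays of that label. Calr read 9.93 log2 in the same replicate 3, against 9.995 to 10.02 log2 in the other 4, a gap of under 0.1 log2 in a gene of very small spread. Groups of 3 arrays are not tested, so WT replicate 1, the highest of all arrays in Chac1 and Trib3, could not be assessed in this way.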

How the results depend on the processing

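The count of genes passing stayed at 0 in either arm and over all genes in the 18 alternative fits and at an adjusted p under 0.1, and the lowest limma adjusted p of a member in any of them was 0.93. At an unadjusted p under 0.05 limma with all arrays gave 530 genes and 0 members. With the replicate block, which uses only the 3 numbers that both groups share, 0 genes passed, the ER arm median was −0.01 log2 and the integrated stress arm median −0.09 log2. It changed no call, and arrays of the same number did not deviate together (correlations −0.26, −0.10 and 0.02). The labels give only the number, and these values cannot show whether such arrays share anything else. The medians ranged from −0.03 to 0.05 log2 (ER arm) and from −0.14 to 0.05 log2 (integrated stress arm) when 1 array was left out. Hspa5 stayed positive in all 18 alternatives (0.05 to 0.36 log2) and Asns negative (−0.19 to −0.11 log2), while Chac1 turned positive without WT replicate 1 (0.38 log2) and Trib3 changed sign in 4 alternatives (lowest −0.35 log2, without WT replicate 2). Slc3a2 changed sign in 5 alternatives (lowest −0.24 log2, with the replicate block) and Xbp1 in 4. Herpud1 changed sign most often, in 7 of 18 (−0.27 to 0.11 log2). Keeping a sign was not particular to Hspa5 and Asns, since other members, among them Hyou1 and Edem1, also kept theirs in all 18. The 18 are not independent checks of a sign. Other dim filters and the trend and robust variance model cannot change a member's difference. The replicate block gave the same difference as leaving out replicates 4 and 5 of the arrays labelled Abhd15 KO. That difference was 0.05 log2 for Hspa5 and −0.13 log2 for Asns. Over all genes, differences between −1.16 and 1.12 log2 did not pass the adjusted threshold. What could have been missed in a member depends on its own spread. The 95% intervals of 27 of the 30 members lay within 1 log2 of 0. A difference above 1 log2 could have been missed in members of wide spread, such as Ddit4 (−1.39 to 1.75 log2). Phgdh, Mthfd2, Slc7a5, Manf, Sdf2l1 and, in most arrays, Chac1 read nearer the dim limit than the other tested members.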
